A study of Homo sapiens with 12 samples.

Results

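The MYC network is a family of dimerising transcription factors that read the E-box, a short palindromic DNA motif. The 10 genes described here were matched by Ensembl identifier in both count tables, out of 62803 identifiers listed in either table and 61757 listed in both. They are the activators MYC and MYCL, their obligate partner MAX, the antagonists MXD1, MXD3, MXD4, MNT and MGA, and the parallel branch of MLX and MLXIPL. RNA was sequenced from RT4, an established human bladder cancer line, in 2 separate experiments of 6 libraries each. In the first, 3 libraries came from RT4 cells with a Flag-ITGB4 plasmid (ITGB4 is the integrin subunit beta 4) and 3 from RT4 cells with the empty Flag vector, all grown in McCoy's 5A medium. In the second, 3 libraries came from cisplatin-resistant RT4 cells with a cisplatin treatment label, and 3 from parental RT4 cells with a PBS label, all labelled WT and grown in MEM. The labels give no dose, time or clone for the resistant cells, and do not say whether the plasmid was carried stably. In the group labels of plasmid and vector libraries 2 and 3, ITGB5 and ITGB6 stand in place of ITGB4, while every title names ITGB4.

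MYC proteins bind DNA only as dimers with MAX, and such dimers raise transcription of genes for growth, ribosome making and metabolism. The MXD proteins and MNT compete for MAX and bring in the SIN3 and histone deacetylase corepressors, whereas MGA joins MAX to a Polycomb complex. MLX pairs with MLXIP and MLXIPL, which respond to glucose metabolites, and also with MXD1, MXD4 and MNT. In stratified epithelia MXD1 is known to rise as cells leave the cycle and differentiate, and MYCL is a recurrent amplification target in urothelial carcinoma.

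Libraries held 22701466 to 33352045 counts in the plasmid experiment and 31824582 to 38199946 in the resistance experiment. ITGB4 was higher in the plasmid libraries at 1379 to 1485 CPM than in the vector libraries at 858 to 879 CPM, and at 831 to 848 CPM in resistant libraries against 598 to 602 CPM in parental libraries. Of 16 urothelial markers, 13 averaged at least 1 CPM in the plasmid and vector groups and 14 in the resistant and parental groups, and 1 was at 0 in all libraries of each group. Their summed level was 6740 to 7199 CPM in plasmid and 5306 to 5496 CPM in vector libraries, and 7762 to 8906 CPM in resistant and 7864 to 7894 CPM in parental libraries. No leukocyte marker of 6 averaged 1 CPM in any group, and 1 endothelial marker of 4 did so in each. Fibroblast markers summed to 24.4 to 26.0 CPM in plasmid and 48.1 to 52.3 CPM in vector libraries, and to 4.43 to 5.73 CPM in resistant and 11.5 to 12.02 CPM in parental libraries, with 2, 0, 3 and 2 of 6 at 0 in all libraries of these 4 groups. The part of these marker levels in the results was not tested.

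All 10 genes passed the low-count filter in both experiments. In cells given the ITGB4 plasmid, MYC, MYCL and MXD4 fell to well under their vector levels while MLX rose, and MAX, MGA and MXD1 rose by less. In cisplatin-resistant cells MYC was not detectably changed, MXD1 fell and MXD4 rose, both over 2-fold, and MLXIPL rose while staying scarce. Called here means an adjusted p under 0.05 in edgeR's quasi-likelihood test, Benjamini-Hochberg adjusted across every gene that was tested. In the plasmid experiment 4 of the 10 were called higher and 4 lower, where 72.2% of all 16950 genes tested were called (36.5% higher, 35.7% lower). In the resistance experiment 3 were called higher and 3 lower, where 54.5% of all 16875 genes tested were called (26.8% higher, 27.7% lower). Both counts of called members thus lay near the background. The members' median log2 fold change was -0.18 in the plasmid experiment, where the median of all genes was 0.00, and -0.00 in the resistance experiment, where it was 0.02. Changes over 2-fold were called for MYC, MYCL and MXD4 in the plasmid experiment, where 16.2% of all genes had such a change, and for MXD1, MXD4 and MLXIPL in the resistance experiment, where 11.5% had one. Throughout, CPM are counts scaled by total and TMM factor, and ± after a log2 fold change is an approximate standard error, the absolute change over the root of F. In bulk RNA, fewer cells with a transcript and less of it per cell cannot be told apart.

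**Figure D1:**
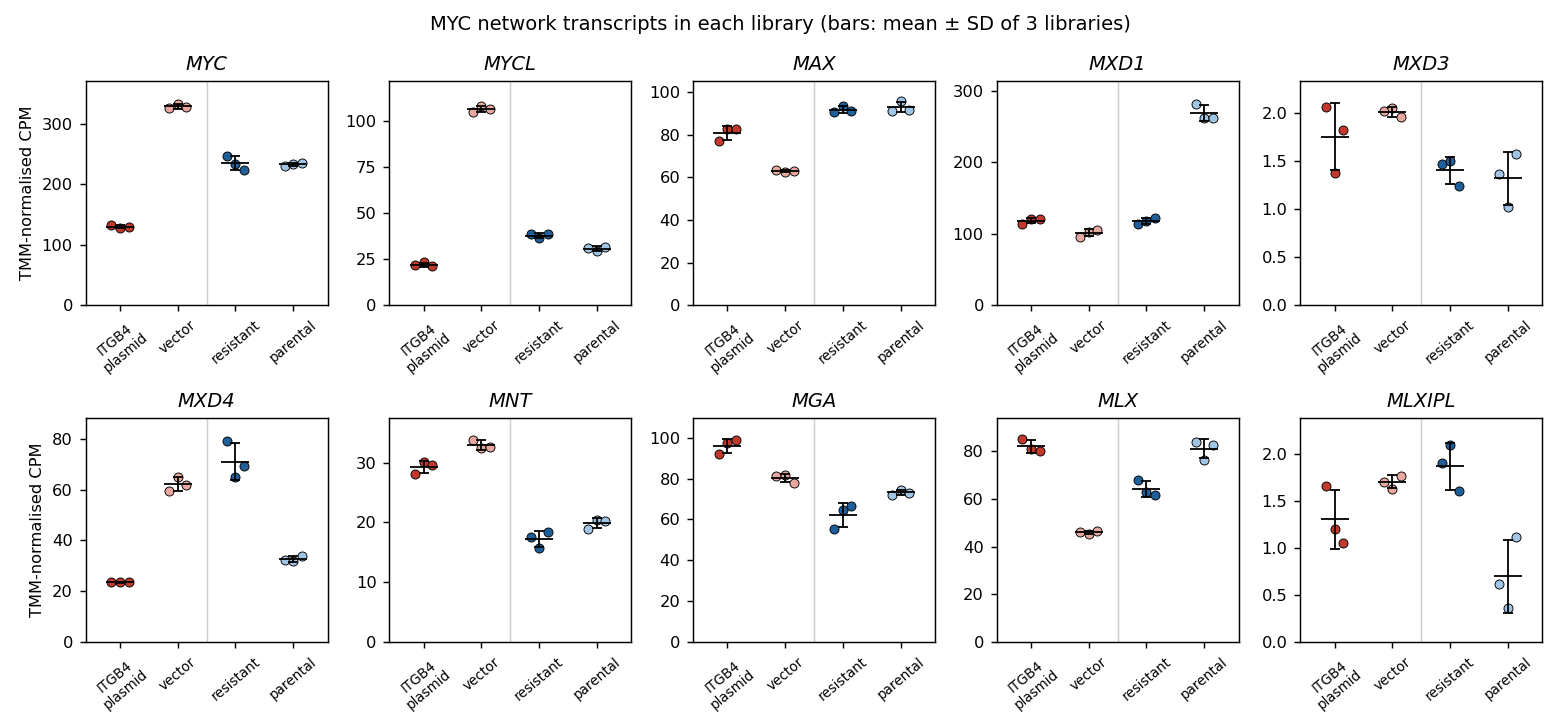
TMM-normalised CPM of each of the 10 genes in the ITGB4 plasmid, vector, resistant and parental libraries. Points are single libraries and bars the mean ± SD of 3. MYC, MYCL and MXD4 sit lower in all plasmid than in all vector libraries, and MXD1 sits lower and MXD4 higher in all resistant than in all parental libraries. The grey line parts the 2 experiments, whose tables were made separately.

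MYC (ENSG00000136997, chromosome 8, 127735434 to 127741434, plus strand, GENCODE 29 on GRCh38) encodes the network's best-known activator. Plasmid libraries 1, 2 and 3 held 132.5, 128 and 129 CPM, against 326, 333 and 328 CPM in vector libraries 1, 2 and 3. All plasmid libraries lay far below all vector libraries, and the spread within each group was a few CPM. The log2 fold change was -1.34 ± 0.027, a 2.54-fold lower level (adjusted p = 6.63e-17). Resistant libraries 1, 2 and 3 held 247, 234 and 224 CPM, against 230.3, 234 and 235 CPM in parental libraries a, b and c. The parental values fell inside the range of the resistant ones, and the log2 fold change was 0.01 ± 0.043 (adjusted p = 0.829), though scaling by library sizes alone gave a call at 0.18 (adjusted p = 0.00169), where the median of all genes shifted by 0.16, and upper quartile scaling gave one at 0.12 (adjusted p = 0.0258). The difference between the experiments was itself called, at -1.38 ± 0.051 on the log2 scale (adjusted p = 3.07e-15).

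MYCL (ENSG00000116990, chromosome 1, 39895426 to 39902256, minus strand), the L-MYC paralog, showed the largest decrease of the 10 in the plasmid experiment. It stood at 21.6, 23.1 and 21.1 CPM in the plasmid libraries, against 105, 108 and 106 CPM in the vector libraries. No library of either group came near the other group, and the level was 4.86-fold lower (log2 -2.28 ± 0.039, adjusted p = 1e-17). In the resistance experiment MYCL was at 38.4, 36.1 and 38.3 CPM in resistant libraries, against 30.9, 29.3 and 31.6 CPM in parental libraries. That rise was 1.23-fold without overlap (log2 0.29 ± 0.065, adjusted p = 0.000914). MYCN, the remaining paralog, was outside the 10 genes and near the floor of detection. It had 16, 20 and 16 counts in the plasmid libraries and 3, 4 and 2 in the vector libraries. Its ratio was 6.54, with an exact 95% interval of 3.20 to 15.1 that covers counting error only. It passed the low-count filter through the plasmid libraries alone, so no call is given. MYCN did not pass the filter in the resistance experiment, with 20 counts over the resistant and 16 over the parental libraries.

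MAX (ENSG00000125952, chromosome 14, 65006174 to 65102695, minus strand), the shared partner, went against MYC and MYCL in the plasmid experiment. Its level was 77.1, 82.7 and 82.7 CPM in plasmid libraries, against 63.4, 62.5 and 63.2 CPM in vector libraries. The groups did not overlap, and MAX was 1.28-fold higher (log2 0.36 ± 0.035, adjusted p = 7.25e-08). Resistant libraries at 90.8, 93.5 and 91.1 CPM overlapped parental libraries at 91.3, 95.8 and 91.8 CPM (log2 -0.02 ± 0.046, adjusted p = 0.768), and scaling by library sizes alone reversed the sign and gave a call at 0.15 (adjusted p = 0.0135). The 2 experiments differed (adjusted p = 1.36e-05).

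Among the antagonists, MXD1 and MXD4 carried the larger changes. MXD1 (ENSG00000059728, chromosome 2, 69897688 to 69942945, plus strand) was at 113, 118 and 122 CPM in resistant libraries, against 281, 262 and 262 CPM in parental libraries. Every resistant library was under every parental one by more than 100 CPM, a 2.28-fold decrease (log2 -1.19 ± 0.046, adjusted p = 5.95e-13). With the plasmid it moved the other way and little, at 114, 121 and 120.0 CPM against 96.0, 102 and 105 CPM with the vector. Those groups did not overlap either, and the rise was 1.17-fold (log2 0.22 ± 0.037, adjusted p = 3.59e-05).

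MXD4 (ENSG00000123933, chromosome 4, 2247432 to 2262294, minus strand) changed over 2-fold in both experiments and in opposite directions. It held 23.5, 23.5 and 23.8 CPM in plasmid libraries, against 59.6, 65.1 and 62.0 CPM in vector libraries. The plasmid libraries agreed within a fraction of a CPM, below all vector libraries, and the fold change was -1.40 ± 0.043 on the log2 scale (adjusted p = 1.94e-14). Resistant libraries held 79.1, 65.1 and 69.3 CPM, against 32.4, 31.9 and 33.8 CPM in parental libraries. Here the resistant group was the higher and the more spread one, with a log2 fold change of 1.12 ± 0.069 (adjusted p = 3.85e-10). The difference between the experiments reached -2.54 on the log2 scale (adjusted p = 1.14e-15), close to that of MYCL at -2.60 (adjusted p = 1.49e-17).

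MNT and MGA, the larger antagonists, shifted by less than 1.3-fold. MNT (ENSG00000070444, chromosome 17, 2384060 to 2401118, minus strand) was at 28.1, 30.1 and 29.6 CPM in plasmid against 33.8, 32.4 and 32.5 CPM in vector libraries. The groups did not overlap and the decrease was called (log2 -0.17 ± 0.043, adjusted p = 0.00253). In resistant libraries MNT stood at 17.6, 15.8 and 18.4 CPM, against 18.9, 20.4 and 20.3 CPM in parental libraries. These groups did not overlap, yet the change of -0.20 ± 0.084 missed the threshold (adjusted p = 0.0525), and it was called without resistant library 3 (-0.25, adjusted p = 0.0297) and in a fit of all 12 libraries (adjusted p = 0.0159). MNT was also the member with the least difference between the experiments, 0.01 on the log2 scale (adjusted p = 0.948).

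MGA (ENSG00000174197, chromosome 15, 41621224 to 41773081, plus strand) was at 92.1, 97.3 and 98.6 CPM in plasmid against 81.3, 81.8 and 77.8 CPM in vector libraries. All plasmid libraries were above all vector libraries (log2 0.26 ± 0.034, adjusted p = 3.22e-06). Resistant libraries held 55.3, 64.5 and 66.3 CPM against 72.1, 74.5 and 72.9 CPM in parental libraries. The resistant ones were all lower (log2 -0.24 ± 0.062, adjusted p = 0.00373), but the call was lost with library sizes alone (-0.07, adjusted p = 0.351) and with upper quartile scaling (-0.13, adjusted p = 0.0873). MXD3 (ENSG00000213347, chromosome 5, 177301461 to 177312757, minus strand) was scarce, at 1.37 to 2.06 CPM in plasmid, 1.95 to 2.05 CPM in vector, 1.24 to 1.498 CPM in resistant and 1.02 to 1.57 CPM in parental libraries. It was not called in either experiment (log2 -0.20, adjusted p = 0.287, and 0.08, adjusted p = 0.814). Its counts are uncertain, since 18.0% of its exon bases are shared with RAB24 on the same strand and 22.5% with the abundant PRELID1 on the other, and counting in the plasmid experiment used no strand option.

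MLX (ENSG00000108788, chromosome 17, 42567068 to 42573239, plus strand), the dimer partner of the parallel branch, was the member with the largest rise in the plasmid experiment. It was at 85.1, 80.8 and 80.3 CPM in plasmid libraries, against 45.9, 45.3 and 46.7 CPM in vector libraries. The groups were far apart, at 1.78-fold (log2 0.83 ± 0.035, adjusted p = 1.36e-12). In the resistance experiment MLX went the other way, at 68.1, 63.0 and 61.5 CPM in resistant against 83.9, 76.5 and 82.8 CPM in parental libraries. That fall was 1.26-fold without overlap (log2 -0.34 ± 0.056, adjusted p = 6.11e-05). PSMC3IP, on the opposite strand, shares 18.1% of the exon bases of MLX, and held 921 counts in the plasmid experiment, where MLX held 10508.

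MLXIPL (ENSG00000009950, chromosome 7, 73593194 to 73624543, minus strand) encodes ChREBP, the carbohydrate sensor of liver and fat, and was low throughout. It had 64, 80 and 62 counts in resistant libraries and 22, 12 and 40 in parental libraries. All resistant libraries were higher, and the parental ones differed among themselves by over 3-fold. The log2 fold change was 1.41 ± 0.34 (adjusted p = 0.00209), and the ratio of summed counts, 2.65, had an exact 95% counting interval of 2.02 to 3.50. In the plasmid experiment it had 37, 30 and 33 counts against 45, 47 and 60 with the vector. Plasmid library 1 overlapped the vector libraries in CPM, and the change of -0.41 ± 0.18 missed the threshold (adjusted p = 0.0517). Without plasmid library 1 it was -0.60 and called (adjusted p = 0.00921), and it was called at -0.42 to -0.48 with each other scaling, with a filter at 1 CPM and by limma-voom (adjusted p = 0.0271 to 0.0498). It was not called under the other alternatives, among them DESeq2 (adjusted p = 0.192) and leaving out plasmid library 3, which gave -0.26 (adjusted p = 0.265).

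Of the 10 genes, 5 were called in both experiments, MYCL, MXD1, MXD4, MGA and MLX, and all 5 moved in opposite directions, with the second call of MGA resting on the scaling as above. Among all genes, 7018 were called in both and 4697 of them, 66.9%, moved in opposite directions. The difference between the experiments was called for 8 of the 10, 4 in each direction, where 61.8% of 18516 genes were called (30.2% higher, 31.6% lower). Differences over 2-fold were called for MYC, MYCL, MXD1, MXD4, MLX and MLXIPL, where 27.2% of all genes had one. MXD3 (adjusted p = 0.394) and MNT were the others.

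**Figure D2:**
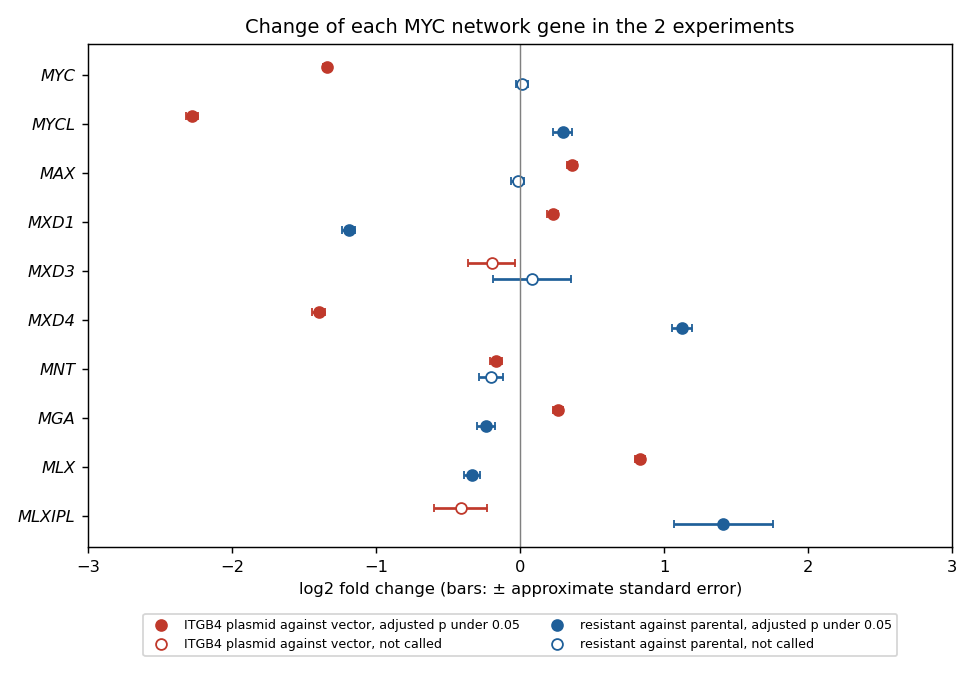
Log2 fold change of each gene, ITGB4 plasmid against vector in red and resistant against parental in blue, with bars of ± the approximate standard error. Filled points are called at an adjusted p under 0.05. MYCL, MXD1, MXD4, MGA and MLX have filled points on opposite sides of 0.

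The remaining paralogs of the family, MXI1 and MLXIP, were followed beside the 10. MXI1, the antagonist also known as MXD2, was at 24.5, 28.7 and 28.5 CPM in plasmid against 15.3, 13.9 and 13.8 CPM in vector libraries. It was at 12.2, 12.5 and 11.8 CPM in resistant against 4.26, 4.28 and 4.49 CPM in parental libraries. Neither pair of groups overlapped, and MXI1 rose in both experiments, by 1.92-fold (adjusted p = 1.29e-09) and by 2.80-fold (adjusted p = 4.64e-09). MLXIP, or MondoA, the second glucose-responsive partner of MLX, averaged 112 ± 2.13 CPM in plasmid and 75.6 ± 0.899 CPM in vector libraries (SD, n = 3), a log2 rise of 0.56 (adjusted p = 3.23e-11 by edgeR). It averaged 94.3 ± 6.92 CPM in resistant and 92.6 ± 2.44 CPM in parental libraries (adjusted p = 0.704 by edgeR), and was called there with library sizes alone (0.19, adjusted p = 0.00714).

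Levels were compared between genes only per length, as CPM per kilobase of exon in GENCODE 29. MYC had the highest level per length of the 10 in every group, with a mean of 43.3 CPM per kilobase in plasmid, 109.7 in vector, 78.3 in resistant and 77.7 in parental libraries. In vector libraries MYCL, MXD1 and MAX followed at 21.0, 15.9 and 14.2 CPM per kilobase, each clear of the next. In plasmid libraries MLX, MXD1 and MAX followed at 19.3, 18.6 and 18.2, and neighbours in that order overlapped, while MYCL was in place 6 at 4.34. Parental libraries had MXD1 in place 2 at 42.2, ahead of MAX at 21.0, and resistant libraries had MAX in place 2 at 20.7, ahead of MXD1 at 18.5. MXD3 and MLXIPL were lowest in all groups, under 0.5 CPM per kilobase. The place of MYC depended on the length used: with the median transcript length it was 3 in plasmid and 2 in parental libraries, and with no length 2 in parental libraries. The 2 tables were made separately, so levels set across experiments rest on different processing.

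Within a library, activator RNA was set against that of a partner or antagonist as a ratio of levels per length. The size of a ratio rests on the exon length used, as the place of MYC did, while its relative change between groups does not. Shares rest on that length too, and protein was not measured. MYC over MAX was 2.37 ± 0.142 in plasmid and 7.71 ± 0.146 in vector libraries (SD, n = 3), and 3.78 ± 0.209 in resistant and 3.70 ± 0.0880 in parental libraries. MYC over MXD1 was 2.32 ± 0.124 in plasmid and 6.89 ± 0.304 in vector libraries, and 4.24 ± 0.366 in resistant and 1.84 ± 0.0934 in parental libraries. Against MXD1 the ratio was thus lower with the plasmid and higher in resistance, with no overlap between groups in either experiment. MYC over MXD4 was 12.9 ± 0.287 in plasmid and 12.5 ± 0.417 in vector libraries, where both genes fell, and 7.81 ± 0.583 in resistant and 16.8 ± 0.479 in parental libraries. As a share of the summed level of the 10 genes, MYC took 37.1% in plasmid and 57.9% in vector libraries, and 50.1% in resistant and 43.8% in parental libraries. MYCL took 3.72% in plasmid and 11.1% in vector libraries, and 4.75% in resistant and 3.41% in parental libraries. The share of MXD1 was 15.99% in plasmid and 8.41% in vector libraries, and 11.9% in resistant and 23.8% in parental libraries. A share also moves with the levels of the other members, and MYC took its larger share in resistance at a level that was not called changed.

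**Figure D3:**
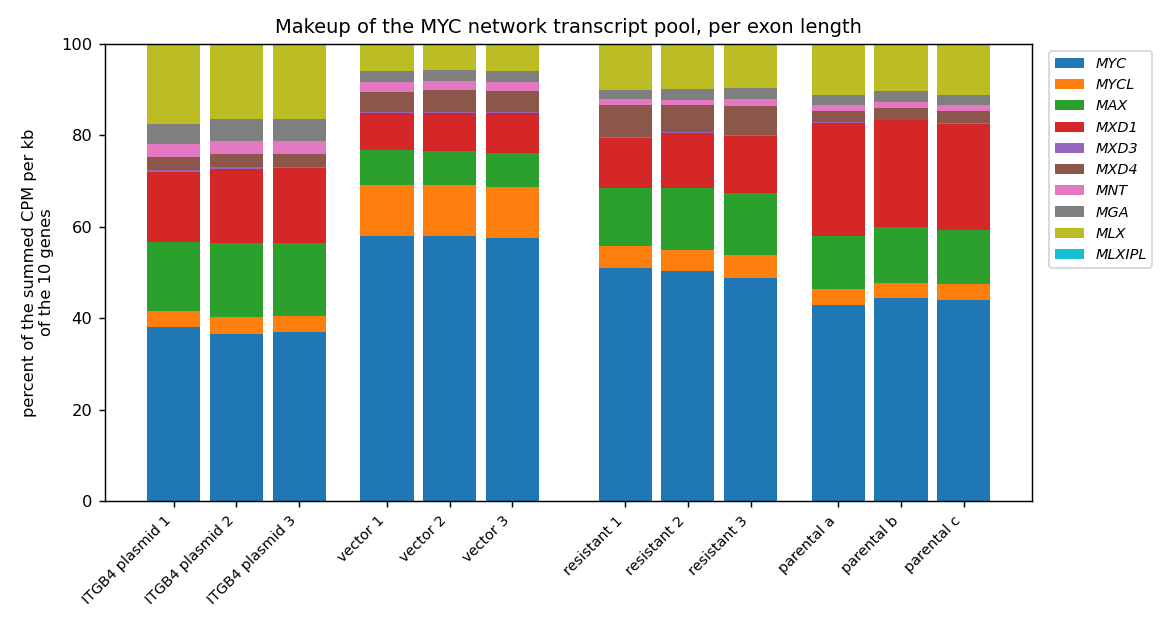
Makeup of the summed CPM per kilobase of the 10 genes in each library, in percent, with 1 stacked bar a library and the groups in the order ITGB4 plasmid, vector, resistant, parental. MYC takes about 37.1% in plasmid and 57.9% in vector bars, and MXD1 about 11.9% in resistant and 23.8% in parental bars.

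Promoters in RefSeq, on GRCh38.p14, were read for 9 of the 10 genes, with 12 starts, from 250 bases before to 50 after each start. No RefSeq promoter entry matched MYC, so its promoter was not searched. The E-box CACGTG, which reads the same on both strands, was in the window of MXD4, MNT and MLX, 3 of 9 genes, or 33.3%, against 8.77% of 27305 genes in that table. Those were not limited to expressed genes, and no test was made. A match of letters is not evidence of binding. The stretches before the start, free of annotated UTR, are shown for these 3 because their windows held the E-box. Of these 3, MXD4 and MLX were called in opposite directions in the 2 experiments, and MNT had the least difference between the experiments of all members. The windows of MYCL, MXD1 and MGA, also called in opposite directions, held no E-box. A link of the E-box to these changes was not tested. Capitals mark the E-box, which begins at position -238 for MXD4, -50 for MLX and -193 for MNT relative to the RefSeq start. They lie at chr4:2262295-2262359 on the minus strand, chr17:42566850-42567067 on the plus strand and chr17:2401119-2401310 on the minus strand, each written 5′ to 3′.
MXD4: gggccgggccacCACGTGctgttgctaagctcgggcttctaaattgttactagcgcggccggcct
MLX: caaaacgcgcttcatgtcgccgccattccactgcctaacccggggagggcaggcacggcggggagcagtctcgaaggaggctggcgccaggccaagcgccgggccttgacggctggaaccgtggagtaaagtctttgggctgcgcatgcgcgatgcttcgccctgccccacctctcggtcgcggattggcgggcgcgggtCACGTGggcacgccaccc
MNT: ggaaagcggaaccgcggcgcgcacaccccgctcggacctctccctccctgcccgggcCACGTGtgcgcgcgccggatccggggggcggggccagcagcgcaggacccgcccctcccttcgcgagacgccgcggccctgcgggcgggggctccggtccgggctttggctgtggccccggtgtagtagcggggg

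The 40 genes listed as textbook MYC-induced targets moved both ways with the plasmid and mostly upwards in resistance. In the plasmid experiment, where MYC was lower, 18 were called higher and 13 lower, where 36.5% of all genes were higher and 35.7% lower, with a median log2 fold change of 0.10 against 0.00 for all genes. In the resistance experiment, where MYC was not called, 33 were higher and 2 lower, where 26.8% of all genes were higher and 27.7% lower, with a median of 0.38 against 0.02 for all genes. Among the 40, 26 were called in both experiments and 14 of those, 53.8%, moved in opposite directions, beside 66.9% of all genes. EIF4E and POLR1B were the 2 lower ones, at -0.16 (adjusted p = 0.0198) and -0.14 (adjusted p = 0.0328), named here after their values were seen.

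Where 2 log2 fold changes are given together from here on, the first is of plasmid against vector and the second of resistant against parental. ODC1, ornithine decarboxylase of polyamine synthesis, had the largest difference between the experiments of the 40, at -3.35 on the log2 scale (adjusted p = 1.4e-20). It was at 86.4, 82.0 and 83.7 CPM in plasmid libraries, against 285, 281 and 282 CPM in vector libraries. It was at 222, 234 and 228 CPM in resistant libraries, against 79.4, 71.2 and 78.5 CPM in parental libraries. Both pairs of groups were far apart, with log2 fold changes of -1.75 ± 0.029 (adjusted p = 5.1e-18) and 1.58 ± 0.049 (adjusted p = 4.38e-14). TFRC, the transferrin receptor, fell by 0.79 on the log2 scale in the plasmid experiment (adjusted p = 1.17e-13) and was 0.22 higher in resistance (adjusted p = 0.0001). CCND2, a D-type cyclin, was at -0.72 and 0.64, and APEX1, a DNA repair endonuclease, at -0.53 and 0.88, each called in both. MCM4, a subunit of the replicative helicase, was 0.85 higher with the plasmid (adjusted p = 1.07e-13) and at -0.01 in resistance (adjusted p = 0.83), where library sizes alone gave 0.15. Reads of NME1, NME2 and PPAN can be shared with near-identical or overlapping genes, so their values are uncertain. IMPDH2, also among the 40, averaged 154 CPM in plasmid and 143 CPM in vector libraries. It averaged only 8.74 CPM in resistant and 6.68 CPM in parental libraries. The reason was not tested, and its values are uncertain too.

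E-boxes were in the windows of 16 of the 32 listed targets with a RefSeq promoter, 50% against 8.77% of all genes. All genes there include unexpressed ones, whereas the listed targets all passed the low-count filter, so the sets are unlike and no test was made. ODC1 held 2, at positions -29 and 5 of its second start, and the first is shown in capitals because ODC1 had the widest swing. The stretch lies at chr2:10448013-10448120 on the minus strand, written 5′ to 3′.
ODC1: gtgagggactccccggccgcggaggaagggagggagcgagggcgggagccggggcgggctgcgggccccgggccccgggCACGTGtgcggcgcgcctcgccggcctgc

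**Figure D4:**
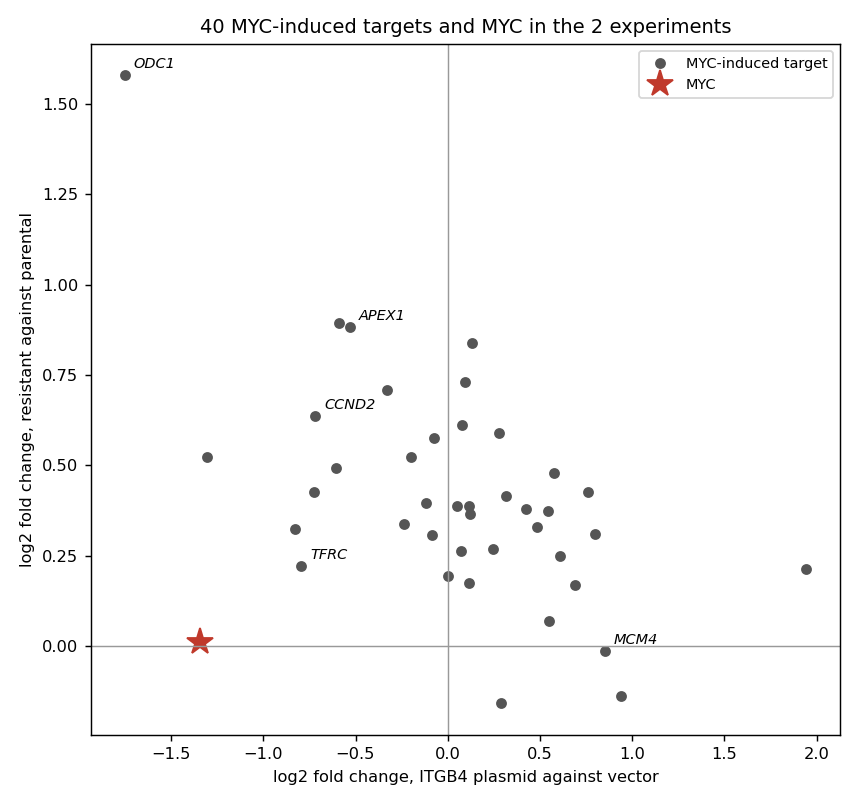
Each grey point is 1 of 40 MYC-induced target genes, with its log2 fold change for ITGB4 plasmid against vector across and for resistant against parental up. The star is MYC, at -1.34 and 0.01. Most points lie above 0 on the resistance axis, while the plasmid axis has points on both sides, and ODC1 lies alone at -1.75 and 1.58.

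Of 10 listed MYC-repressed genes, 8 were tested in each experiment, with 3 higher and 5 lower with the plasmid and 4 higher and 3 lower in resistance, where 72.2% and 54.5% of all genes were called. THBS1, an antiangiogenic matrix protein, held 913, 907 and 923 CPM in plasmid libraries, against 6010, 6151 and 6117 CPM in vector libraries. It was thus lower alongside MYC, by 6.66-fold (adjusted p = 3.05e-22), and at -0.13 in resistance (adjusted p = 0.00296), a call that library sizes alone and upper quartile scaling lost. NDRG2, a stress-responsive growth suppressor, was at 109, 103 and 106.96 CPM in plasmid libraries against 18.4, 17.7 and 20.2 CPM in vector libraries, and at 34.8, 32.1 and 32.3 CPM in resistant libraries against 142, 145 and 143 CPM in parental libraries. Its groups were far apart in both experiments, at 5.65-fold higher (adjusted p = 1.58e-17) and 4.35-fold lower (adjusted p = 2.2e-15). NDRG1, its paralog, was higher in both, at 1.10 and 0.29. GADD45A, a DNA damage response gene, was at -0.41 and 1.19, and CLU, the chaperone clusterin, at -0.67 and 0.93, both called in each experiment.

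The corepressors through which MXD, MNT and MGA act had 7 of 14 tested members higher and 1 lower with the plasmid, and 2 higher and 7 lower in resistance. Of all genes, 36.5% were higher and 35.7% lower with the plasmid, and 26.8% higher and 27.7% lower in resistance. The list's medians were 0.11 and -0.14, against 0.00 and 0.02 for all genes. SIN3A, the scaffold bound by MXD proteins and MNT, held 184, 179.9 and 179 CPM in plasmid libraries against 89.6, 91.7 and 92.0 CPM in vector libraries. It held 92.8, 98.7 and 97.6 CPM in resistant libraries against 109, 111 and 109 CPM in parental libraries. Its rise with the plasmid was 1.98-fold (adjusted p = 7.27e-15), and its smaller fall in resistance, -0.19 (adjusted p = 0.00209), was lost with library sizes alone (-0.02, adjusted p = 0.695) and upper quartile scaling (-0.08, adjusted p = 0.142). Its paralog SIN3B did much the same, at 0.72 and -0.19, with the second call lost under the same scalings. HDAC2 was 0.28 and 0.14 higher. Without parental library b, SIN3B (-0.14, adjusted p = 0.0532) and HDAC2 (0.11, adjusted p = 0.1) were not called in resistance. In resistance NCOR1, the nuclear receptor corepressor, was at -0.52 (adjusted p = 5.54e-07), and YAF2 and RYBP, subunits of the Polycomb complex that holds MGA, at -0.39 and -0.25. With library sizes alone RYBP lost its resistance call (-0.08, adjusted p = 0.159). With the plasmid these 3 were not called with TMM scaling, but NCOR1 and RYBP were called lower with library sizes alone (-0.06 and -0.11) and upper quartile scaling (-0.09 and -0.13).

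Cofactors and turnover factors of MYC were tested for all 19 genes, with 10 higher and 5 lower with the plasmid and 7 higher and 8 lower in resistance, where 72.2% and 54.5% of all genes were called. HUWE1, a ubiquitin ligase for MYC, was lower in both, at -0.61 (adjusted p = 1.94e-13) and -0.44 (adjusted p = 6.18e-07). CIP2A, which shields MYC from dephosphorylation and decay, was 0.73 higher with the plasmid (adjusted p = 3.34e-10) and fell by 0.88 in resistance (adjusted p = 5.36e-09). USP37, a deubiquitinase of MYC, was 0.73 higher with the plasmid (adjusted p = 3.28e-10), and USP36, the nucleolar one, was 0.52 higher in resistance (adjusted p = 1.6e-07). RUVBL1, a helicase of MYC coactivator complexes, was higher in both, at 0.30 and 0.75.

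Regulators of MYC transcription split 3 higher and 3 lower of 8 with the plasmid, and 2 higher and 4 lower in resistance, where 72.2% and 54.5% of all genes were called. Their medians were 0.00 and -0.25, against 0.00 and 0.02 for all genes. FUBP1, which binds the far upstream element of MYC, was lower in both, at -0.27 (adjusted p = 1.37e-07) and -0.44 (adjusted p = 1.59e-07). CTNNB1, or beta-catenin, was at 0.01 (adjusted p = 0.844, and at -0.06 with a call under upper quartile scaling) and -0.39 (adjusted p = 8.93e-08). LEF1, its DNA-binding partner, was scarce, at 1.605 ± 0.0841 CPM in plasmid and 2.93 ± 0.269 CPM in vector libraries, and 3.67 ± 0.159 CPM in resistant and 2.095 ± 0.372 CPM in parental libraries (SD, n = 3). It was called lower with the plasmid (-0.86) and higher in resistance (0.81). CDK9, the elongation kinase, was 0.27 higher with the plasmid (adjusted p = 5.37e-06).

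Targets of the MLX branch were tested for 10 of 13 genes with the plasmid, 3 higher and 5 lower, and for 12 of 13 in resistance, 5 higher and 2 lower. These shares of called genes lay near the 72.2% and 54.5% of all genes. In this list ACACA varied from 3.44 to 16.8 CPM among the parental libraries. FGF21 had 154 counts over the resistant and 10 over the parental libraries. It passed the low-count filter through the resistant libraries alone, so no call is given for it, though the counts above take it in. Both are named here after their values were seen, and their values are uncertain. TXNIP, the thioredoxin-binding protein and prime target of MLXIP and MLX, had 524, 545 and 541 CPM in plasmid libraries against 141, 132 and 137 CPM in vector libraries. The rise was 3.93-fold without overlap (adjusted p = 1.38e-18), in the experiment in which MLX and MLXIP also rose. In resistance TXNIP overlapped, at 1047, 1129.5 and 1103 CPM in resistant against 1101, 1084 and 1095 CPM in parental libraries (log2 -0.00, adjusted p = 0.994), and was called higher with library sizes alone (0.16) and upper quartile scaling (0.11). ARRDC4, its arrestin-family relative, did not follow, at -0.38 with the plasmid (adjusted p = 2.75e-08) and 0.77 in resistance (adjusted p = 1.59e-09). KLF10 was at -0.84 and 0.14, the second losing its call without parental library a, parental library c or resistant library 2 (0.11 to 0.13). ELOVL6, a fatty acid elongase, was at 0.71 and 0.14, RGS16 at -0.14 and 1.61, and TKFC at -0.43 and 0.73. With TMM scaling ELOVL6 was not called in resistance (adjusted p = 0.107), nor RGS16 with the plasmid (adjusted p = 0.117). Both were called with library sizes alone (0.30 and -0.18) and upper quartile scaling (0.25 and -0.21), and ELOVL6 also in a fit of all 12 libraries (adjusted p = 0.0237).

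The carbohydrate response element read by MLX dimers is a spaced pair of E-box-like sites. It was searched on both strands only as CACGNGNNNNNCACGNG, in which both sites have the same orientation. Pairs of sites in opposite orientation were not searched as such, so the counts are of this form alone. Among the 10 MLX targets with a promoter, TXNIP alone held this form, and 20 of all genes did, 0.0732%. Its stretch is shown, with both sites in capitals and the pair beginning at position -88, because TXNIP differed most between plasmid and vector among the named MLX targets. It lies at chr1:145996601-145996829 on the minus strand, written 5′ to 3′.
TXNIP: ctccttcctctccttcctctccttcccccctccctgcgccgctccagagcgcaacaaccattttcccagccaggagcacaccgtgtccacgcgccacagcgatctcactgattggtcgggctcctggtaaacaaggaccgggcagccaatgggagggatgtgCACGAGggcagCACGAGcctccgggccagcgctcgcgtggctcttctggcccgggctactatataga

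The genes whose pattern over the 12 libraries was most like that of MYC were found by the root mean square difference of log2 CPM, each gene centred on its own experiment's controls, over 8691 protein-coding genes. SLC7A5, the large neutral amino acid transporter, came closest with a difference of 0.052 on the log2 scale. It averaged 283 CPM in plasmid and 757 CPM in vector libraries, and 632 CPM in resistant and 618 CPM in parental libraries. MFSD6 (0.070), NPTXR (0.071), RRAGD (0.091) and SCD, the stearoyl-CoA desaturase (0.094), came next. All 5 were 1.25 to 1.42 lower on the log2 scale with the plasmid and, with TMM scaling, within 0.15 of 0 in resistance, where SCD was called (0.14, adjusted p = 0.00387) and the others were not. SLC7A5, MFSD6 and NPTXR were called higher in resistance with library sizes alone (0.20, 0.23 and 0.30) and upper quartile scaling (0.14, 0.18 and 0.24). NPTXR was also called there without resistant library 3 (0.19, adjusted p = 0.00892), with a filter at 1 CPM (adjusted p = 0.0313) and in a fit of all 12 libraries (adjusted p = 0.0121). These genes were chosen for their likeness, so this is a description with no test.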

How the data were processed

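Raw counts per gene were deposited by the authors as 2 tables, 1 for each experiment. The library kit marks strand, per the labels' protocols. Overexpression read pairs were counted with featureCounts 2.0.1 on the Ensembl 107 annotation with no strand option, per the file headers, and per the submitters' processing notes the build was hg38. How the resistance table was made, and which aligner version was used, is not given in the sources used here. All 37 mitochondrial genes were at 0 in the overexpression table and held 1.81% of counts in the other.

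The parental columns carry no sample title and were taken as that group because their table also holds the resistant columns, an inference. They are called a, b and c. Over 9481 genes they correlated at 0.803 to 0.805 with vector libraries and at 0.998 with each other. Replicates differed beyond sampling noise, and nothing says that they were separate cultures, so p-values may measure technical spread.

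Genes passing filterByExpr were tested with TMM factors and edgeR's quasi-likelihood test (edgeR 4.0.16, limma 3.58.1, R 4.3.3), per experiment, and for the difference in 1 fit of 12 libraries with 4 group means. Adjusted p-values are Benjamini-Hochberg over all genes tested. The procedure was tested on simulated counts in which few genes changed, unlike these data. That test cannot show how the scaling performs where most genes are called. Symbols matched 61757 of 61860 and 62700 of 62700 identifiers. The tables hold no gene length, so exon lengths and positions came from GENCODE 29. Likeness to MYC used a pseudocount of 0.5 CPM and genes averaging 10 CPM or more in each experiment. Named genes were the 10 members, all of a list of up to 3, otherwise up to 3 called members of a list with the smallest p in each experiment, the 5 genes most like MYC, and ITGB4. A gene taken by this rule is not reported here. The members, lists and this rule were chosen with earlier results of these data known. As alternatives, the scaling, the filter and the tool (DESeq2 1.42.0, limma-voom) were changed, with a 1.5-fold threshold (glmTreat), a fit of all libraries, other lengths, a replicate block and leaving out each library.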

Additional observations from a re-analysis of the deposited data

How the results depend on the processing

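For the 10 genes, 488 of 510 single results kept their side of the threshold, and their direction wherever they were called. Of the rest, 10 gained a call, 11 lost one and 1 turned round with a call in at least 1 fit. Results called in neither fit count as kept even if their sign changed. MXD3 in resistance, for example, ranged from -0.07 to 0.25 on the log2 scale without a call. For the other named genes, 1183 of 1255 were kept in this sense, 27 gained a call, 40 lost one and 5 turned round. With a 1.5-fold threshold (glmTreat), 1 member was higher and 3 lower with the plasmid, 2 higher and 1 lower in resistance, and 2 higher and 4 lower in the difference. All genes called then numbered 3818 with the plasmid (1880 higher and 1938 lower, of 16950 tested). They numbered 2107 in resistance (1042 and 1065, of 16875) and 5735 in the difference (2769 and 2966, of 18516). All listed pathway genes then had 16 higher and 11 lower with the plasmid and 13 higher and 2 lower in resistance, and induced targets 5 higher and 6 lower, and 5 higher and 0 lower. Library sizes alone moved the resistance median of all genes by 0.16 (6548 higher, 3111 lower, against 4520 and 4679 with TMM) and that of the difference by -0.18 (4422 higher, 7250 lower), and upper quartile scaling moved them by 0.11 (5761, 3584) and -0.15 (4615, 6979). In resistance, library sizes alone gave 5 members higher, 13 pathway genes lower, 0 induced targets lower, and turned MAX to 0.15, MCM4 to 0.15, THBS1 to 0.031 and TXNIP to 0.16. Upper quartile scaling gave 0 induced targets lower, and turned TXNIP to 0.11 there and CTNNB1 to -0.059 with the plasmid. Leaving out 1 library left 0 to 2 induced targets lower in resistance. With the median transcript length MYC took place 3 in plasmid and 2 in parental libraries, and with no length 2 in parental libraries. Apart from these scalings and lengths, whose construction is the change, the cause was not tested. A replicate block in the plasmid experiment called 12070 genes, against 12234 without it. Same-numbered libraries did not deviate together (correlations -0.039, -0.075 and -0.030), so no pairing by number was seen, which cannot show that there was none. No paired analysis was possible for resistance or the difference because the parental columns carry no sample number. MXD3, MLXIPL and MYCN are limited by their low counts.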

Other observations

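The E-box CACGTG was counted in the RefSeq promoter windows of the other lists as well. It was in 5 of 13 genes of the MYC cofactor and turnover list (38.5%), in 2 of 7 MYC-repressed genes (28.6%), in 2 of 10 MLX targets (20%), in 1 of 15 corepressors (6.67%) and in 0 of 6 regulators of MYC transcription. All genes of the table, expressed or not, had it in 8.77%. These are counts of letters in a window, with no test, and the list genes without a RefSeq promoter were not counted.

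ARRDC4 was among the 2 MLX targets with an E-box, at position -210. Its changes were opposite in sign to those of MLX in both experiments, as were those of KLF10, RGS16 and TKFC. A link of the E-box to these changes was not tested.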
